A study of Mus musculus with 12 samples.

Results

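The genes described here encode the structural proteins of the cornified envelope and of the cornified cell interior. Exceptions are Sprr2g and Sprr2j-ps, which RefSeq lists as transcribed pseudogenes. All the genes were chosen by symbol: the symbol starts with Lce1, Lce3, Sprr1, Sprr2, Sprr3 or Sprr4, or is Flg, Flg2, Hrnr, Rptn, Tchh, Tchhl1, Ivl, Lor, Crct1 or Crnn, and the estimated counts summed over the 12 libraries reach 15. Of the 29956 named genes in the table, 47 had such a symbol and 46 of these reached the sum. The 46 are 14 Lce1 genes, 6 Lce3 genes, 2 Sprr1 genes, 12 Sprr2 genes, Sprr3, Sprr4, 7 genes of the S100-fused type (Flg, Flg2, Hrnr, Rptn, Tchh, Tchhl1 and Crnn) and 3 further precursors (Ivl, Lor and Crct1). The gene just outside the sum was Sprr2c-ps with 7.1 estimated counts, and those just inside were Crnn with 15.9, Tchhl1 with 83.2 and Sprr3 with 610.3. Crnn and Tchhl1 were too low for the differential test, so 44 of the 46 genes were tested.

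RNA was sequenced from wounded back skin of mice of the genotype B6.BKS(D)-Leprdb/db, in which the leptin receptor is defective and the animals become obese and diabetic. All 3 groups carry this genotype and full-thickness punch wounds, and their skin was frozen on day 3. Wounds of 1 group received the Gram-negative bacterium Alcaligenes faecalis, those of another the Gram-positive pathogen Staphylococcus aureus, and those of the third only vehicle, which was PBS containing 10% glycerol. Per the series design there were 4 mice in each group, and each library is read as 1 mouse. Age and sex are not given in the sources used here, and no unwounded or non-diabetic skin was analysed.

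The cornified envelope is the sheet of cross-linked protein that replaces the plasma membrane of keratinocytes as they flatten and die at the skin surface. Involucrin, loricrin, the small proline-rich proteins (SPRR) and the late cornified envelope proteins (LCE) are its building blocks, and transglutaminases join them. Filaggrin and its relatives, the S100-fused proteins, bundle keratin filaments or fill the cornified cell. The genes form the epidermal differentiation complex, a cluster in which neighbours often encode related proteins. Most of them are switched on late in keratinocyte differentiation, and several SPRR genes and LCE3 genes are known to respond to injury and inflammation of the skin.

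All 46 genes lie on mouse chromosome 3, in an order that starts with Lor, the Sprr2 genes, Sprr1b, Sprr3, Sprr1a, Sprr4 and Ivl. There follow 13 of the 14 Lce1 genes, the 6 Lce3 genes, Crct1, Lce1m, Crnn, Flg2, Flg, Hrnr, Rptn, Tchh and Tchhl1. Libraries held 38.4 to 71.3 M (mega) estimated counts, of which these genes took 0.0402% to 0.200%. Levels are given as CPM, estimated counts per M of scaled library total, and values after ± are SDs of 4 libraries. Vehicle replicate 3 stood apart from the other vehicle libraries. Its 6 adipocyte markers summed to 6636 CPM, where the other 3 held 1642 to 2164 CPM, and its 6 neutrophil markers summed to 704 CPM, the lowest of the 12 libraries. Markers of basal keratinocytes (Krt5, Krt14, Col17a1, Itga6, Itgb4 and Trp63) summed to 1196 to 1889 CPM with vehicle, 713 to 1159 CPM with A. faecalis and 929.7 to 2375 CPM with S. aureus. In whole tissue, fewer keratinocytes and less RNA of a gene per keratinocyte cannot be told apart.

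Because close paralogs share sequence, reads can be divided between them in ways that the deposited values do not show. In the reference transcripts, 5 of the 46 genes shared at least 50% of their stretches of 31 bases with other genes. These were Sprr2a1 at 96.9%, Sprr2a2 at 97.8%, Sprr2a3 at 73.6%, Lce3d at 60.3% and Lce1i at 58.8%. By contrast 20 of the 46 shared under 10%, among them Flg2, Rptn, Lce1m, Sprr2j-ps, Sprr3 and Sprr4. Sums over subfamilies are therefore given beside single genes. Per kilobase of the longest transcript, the highest mean levels with vehicle were those of Sprr1a at 151 CPM, Sprr2d at 117 CPM and Sprr1b at 72.9 CPM. On the same scale Sprr2d was at 294 CPM and Sprr1a at 211 CPM with S. aureus. The lowest of the tested genes with vehicle was Tchh at 0.463 CPM per kilobase.

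With S. aureus, 4 of the 6 Lce3 genes rose against vehicle and 3 genes of other subfamilies fell. Lce3a, Lce3b, Lce3e and Lce3f rose, with log2 fold changes of 1.64 to 1.91, and so did Sprr2j-ps, a Sprr2 copy whose symbol marks it as a pseudogene. Flg2, Lce1m and Sprr4 fell. These 8 of 44 genes were called, 5 higher and 3 lower, at an adjusted p under 0.05 from edgeR's quasi-likelihood test over 18218 genes, of which 6.84% were called (3.87% higher and 2.97% lower). Where no other tool is named, called means called by this test. The DESeq2 Wald test called 18 of the 44 (13 higher and 5 lower), against 16.1% of all genes (8.75% and 7.37%), and limma-voom called 10, against 7.02%. The median log2 fold change of the 44 was 0.29, and that of all genes tested was -0.04. The 2 groups did not overlap for 12 of the 44 genes on the higher side and for 4 on the lower side, against 7.56% and 7.57% of all genes. Leaving out S. aureus replicate 3 or S. aureus replicate 4 lowered the number called from 8 to 5 in each case, leaving out A. faecalis replicate 1 raised it to 12, and without vehicle replicate 3 it was 8. The 6 neutrophil markers (S100a8, S100a9, Csf3r, Cxcr2, Ly6g and Mmp8) summed to 8636 to 13266 CPM with S. aureus and 704 to 8274 CPM with vehicle. S100a8 and S100a9 made up 4031 and 4706 CPM of the mean S. aureus sum of 10461 CPM. Of the 6 markers, edgeR's test called 0 against vehicle, and the DESeq2 Wald test and limma-voom called 2 each. Log2 fold changes were negative for 0 of 6 neutrophil, 6 of 6 adipocyte, 5 of 6 sebaceous gland and 5 of 6 basal keratinocyte markers. They were also negative for 3 of 6 spinous keratinocyte and 3 of 6 fibroblast markers. An unadjusted p under 0.05 by edgeR's test was reached by 4 neutrophil, 5 adipocyte and 3 sebaceous gland markers. In each of the other lists 1 marker reached it, against 27% of all genes. The part of these lists in these differences was not tested.

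With A. faecalis, every one of the 44 genes had a lower fitted level than with vehicle, and none of them was called by edgeR's quasi-likelihood test, which called 0.011% of all genes. Of all 18218 genes tested, 10244 had a negative log2 fold change in this comparison. Those of the 44 genes ran from -3.38 for Sprr2b to -0.22 for Lce1a2, with a median of -0.61, and the median of all genes was -0.03. An unadjusted p under 0.05 was reached by 14 of the 44 genes, against 7.68% of all genes. The groups did not overlap for 8 genes, all lower with A. faecalis (Lce3a, Lce3b, Lce3e, Lce3f, Lce1g, Sprr2a2, Sprr2a3 and Rptn), against 2.56% of all genes on that side. The DESeq2 Wald test called 6 of the 44 lower (Lce3a, Lce3b, Lce3f, Sprr2a2, Sprr2b and Rptn), against 0.44% of all genes, and limma-voom called 0, against 0.011%. Summed over all 46 genes the level was 1109, 1083, 957 and 1135 with vehicle, 378, 589, 747 and 909 with A. faecalis and 2010, 1726, 1276 and 874 with S. aureus, in CPM, so that all 4 A. faecalis libraries lay below all 4 vehicle libraries. The basal keratinocyte markers likewise summed to less in every A. faecalis library than in any vehicle library (means of 972 and 1643 CPM). Of these, 6 of 6 log2 fold changes were negative, 5 of 6 had an unadjusted p under 0.05 and 0 of 6 were called by any of the 3 tools. Sums of 6 spinous keratinocyte markers (Krt1, Krt10, Dsg1a, Dsc1, Calml3 and Serpinb2) overlapped, at 290 to 599 CPM with A. faecalis and 500 to 701 CPM with vehicle. All 6 were negative, 1 at an unadjusted p under 0.05. Also negative were 6 of 6 adipocyte, 6 of 6 fibroblast, 5 of 6 sebaceous gland and 4 of 6 neutrophil markers. The part of these lists in the result was not tested.

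Set directly against S. aureus, A. faecalis wounds had less of the Lce3 genes, most Sprr2 genes, Rptn and Tchh, and more Flg2, Sprr3 and Sprr4. Of the 44 genes 20 were called, 17 lower and 3 higher with A. faecalis, where 12.7% of all genes were called (7.62% lower and 5.06% higher). All 6 Lce3 genes and 9 of 12 Sprr2 genes were among the 17. None of the 14 Lce1 genes, the 2 Sprr1 genes, Ivl, Lor or Crct1 was called by edgeR's quasi-likelihood test. Of these 19 genes 7 reached an unadjusted p under 0.05, against 28.2% of all genes, the DESeq2 Wald test called 6 (19.1% of all genes) and limma-voom called 0 (12.1%). Of the 6 neutrophil markers 4 were called lower with A. faecalis, their sums running over 1749 to 4159 CPM against 8636 to 13266 CPM with S. aureus, and their part in these differences was not tested. Each bacterium's comparison with vehicle uses the same 4 vehicle libraries, so their values are set side by side here and are not independent. The number called was 13 without A. faecalis replicate 2, and with limma-voom, or without any 1 of A. faecalis replicates 2, 3 and 4 and S. aureus replicates 3 and 4, only 1 gene was called higher.

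**Figure D1:**
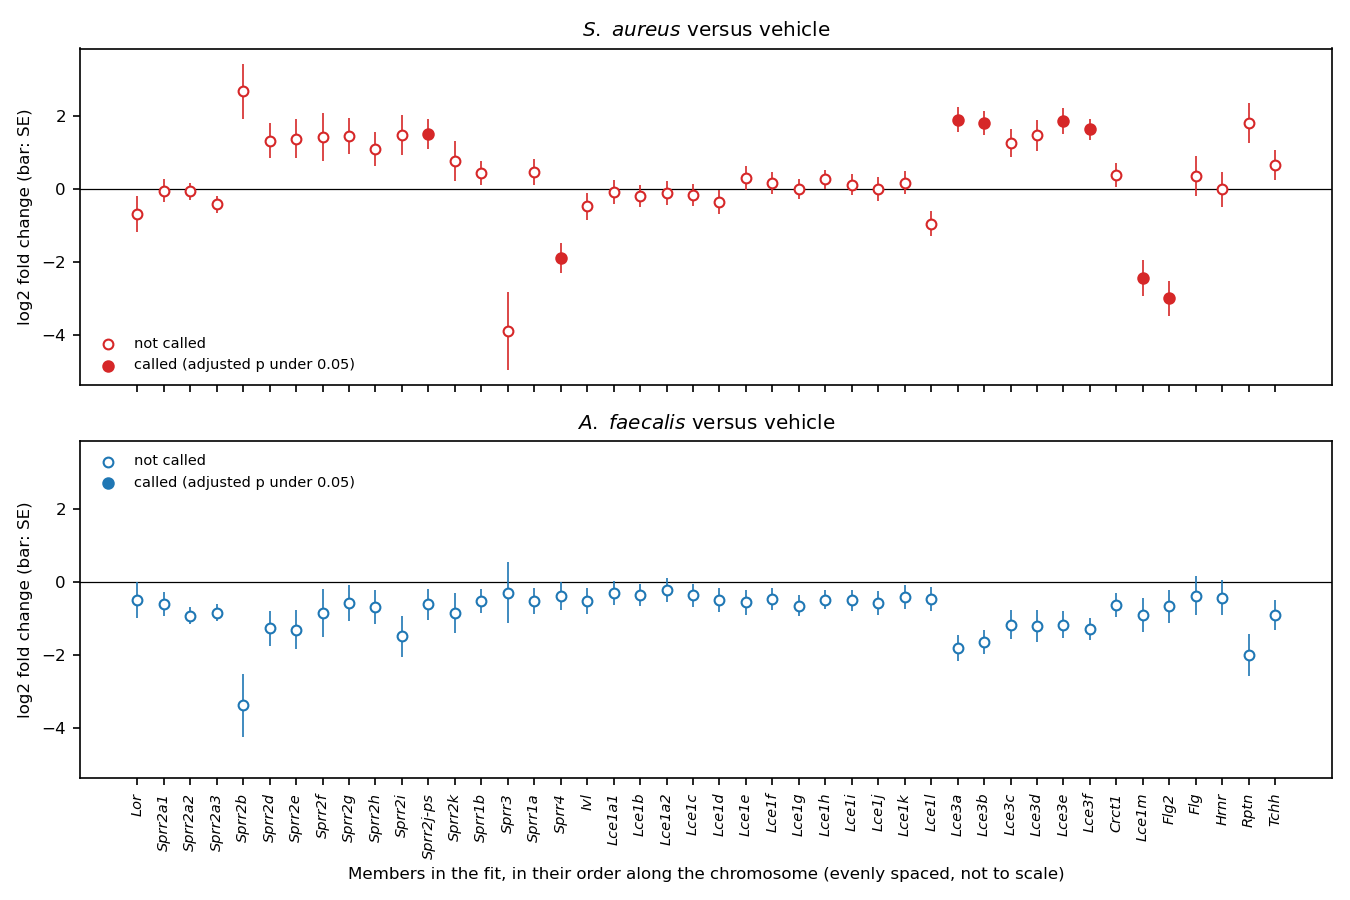
Log2 fold changes against vehicle (y axis) of the 44 tested genes, in their order along the chromosome (x axis, evenly spaced), for S. aureus (top) and A. faecalis (bottom); bars are standard errors and filled points were called. The Lce3 block lies above 0 with S. aureus, Sprr4, Lce1m and Flg2 lie below it, and all 44 points lie below 0 with A. faecalis.

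The late cornified envelope genes encode small cysteine-rich and glycine-rich proteins added to the envelope late, and the LCE3 proteins are the members associated with damaged or inflamed rather than resting epidermis. Lce3a was at 3.14, 3.87, 2.30 and 4.12 CPM with vehicle, 0.659, 0.617, 0.919 and 1.71 with A. faecalis and 18.6, 12.8, 11.5 and 7.73 with S. aureus. The 3 groups did not overlap in either direction: S. aureus was highest and A. faecalis lowest. Against vehicle Lce3a rose with S. aureus to 12.6 ± 4.49 from 3.36 ± 0.816 CPM (log2 fold change 1.91, SE 0.34, adjusted p = 0.012; 95% interval 1.17 to 2.65). With A. faecalis it was at 0.976 ± 0.506 CPM (log2 fold change -1.81, SE 0.36, not called, adjusted p = 0.263), and between the 2 bacteria it differed 13.2-fold (log2 fold change -3.72, SE 0.37, adjusted p = 0.000713).

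Lce3b was at 3.00, 3.87, 4.95 and 5.32 CPM with vehicle, 1.10, 0.861, 1.22 and 2.40 with A. faecalis and 22.6, 13.8, 13.8 and 10.0 with S. aureus. Its 3 groups were likewise separate and in the same order. It rose with S. aureus against vehicle (log2 fold change 1.81, SE 0.33, adjusted p = 0.0127) and was lower with A. faecalis than with S. aureus (log2 fold change -3.45, SE 0.35, adjusted p = 0.000713). Lce3e was at 2.36, 2.41, 1.91 and 2.17 CPM with vehicle, 0.811, 0.459, 1.06 and 1.64 with A. faecalis and 12.2, 9.19, 6.99 and 4.22 with S. aureus, again with no overlap among the 3 groups. It rose with S. aureus (log2 fold change 1.88, SE 0.36, adjusted p = 0.0163), and A. faecalis against S. aureus gave a log2 fold change of -3.05 (adjusted p = 0.00104). Lce3f was at 3.96, 4.98, 3.85 and 4.59 CPM with vehicle, 1.22, 1.31, 1.98 and 2.68 with A. faecalis and 18.3, 14.0, 14.7 and 7.29 with S. aureus. It too rose with S. aureus against vehicle (log2 fold change 1.64, SE 0.29, adjusted p = 0.012) and was lower with A. faecalis than with S. aureus (log2 fold change -2.93, SE 0.31, adjusted p = 0.000719), and its groups were separate.

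Lce3c, on raw CPM the most abundant of the 6, was at 5.50, 6.44, 7.53 and 8.60 CPM with vehicle, 1.40, 2.24, 3.26 and 5.67 with A. faecalis and 26.2, 14.6, 17.6 and 9.17 with S. aureus. Here A. faecalis replicate 4 lay just above the lowest vehicle library, while S. aureus stayed above both other groups. The difference between S. aureus and vehicle was not called by edgeR's test (log2 fold change 1.26, SE 0.39, adjusted p = 0.0695; DESeq2 Wald test 0.0114), and that between A. faecalis and S. aureus was (log2 fold change -2.44, SE 0.41, adjusted p = 0.00392). Lce3d, which shares 60.3% of its sequence stretches with other genes, was at 3.07, 4.39, 7.10 and 7.36 CPM with vehicle, 1.13, 1.65, 2.50 and 4.32 with A. faecalis and 24.0, 13.3, 15.6 and 8.43 with S. aureus. Its pattern was that of Lce3c: not called against vehicle with S. aureus by edgeR's test (log2 fold change 1.48, SE 0.43, adjusted p = 0.0578; DESeq2 Wald test 0.00578, limma-voom 0.0454) and called between the bacteria (log2 fold change -2.69, SE 0.45, adjusted p = 0.00392). Calls for the 6 Lce3 genes between the bacteria, and for Lce3a, Lce3b, Lce3e and Lce3f between S. aureus and vehicle, held without each of the 12 libraries in turn and under every other setting tried.

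Summed over the 6 genes, which removes the division of reads among them, Lce3 was at 21.0, 26.0, 27.6 and 32.1 with vehicle, 6.32, 7.13, 10.9 and 18.4 with A. faecalis and 122, 77.7, 80.1 and 46.8 with S. aureus, in CPM. The means were 26.7 ± 4.59, 10.7 ± 5.52 and 81.6 ± 30.8 CPM (n = 4 each), so that the S. aureus mean was 3.06 times the vehicle mean and the vehicle mean 2.49 times the A. faecalis mean. The 3 groups were separate at the level of the sum.

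**Figure D2:**
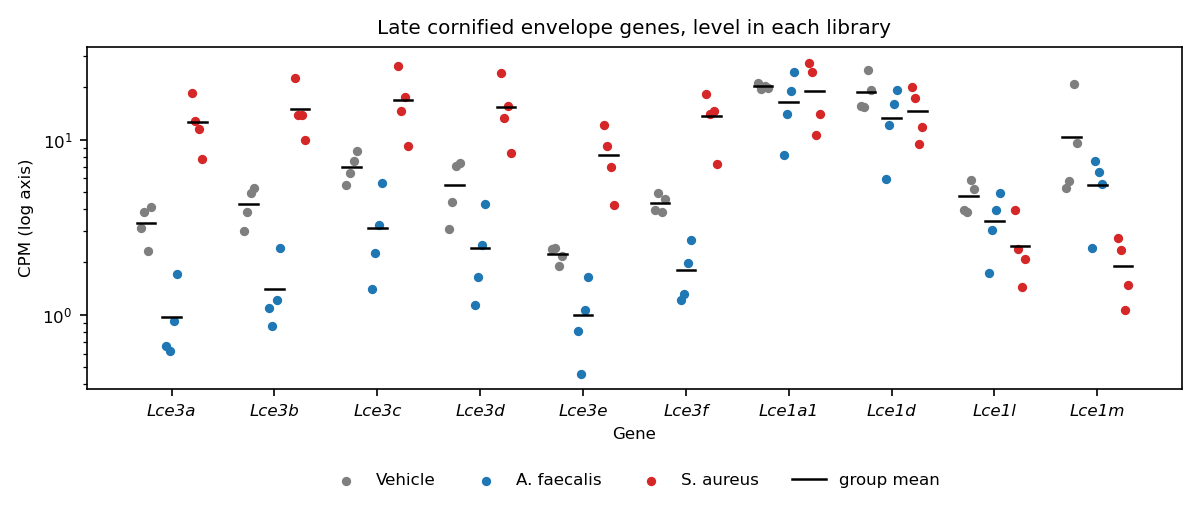
Level in each library (points; y axis, CPM on a log axis) of the 6 Lce3 genes and of Lce1a1, Lce1d, Lce1l and Lce1m (x axis), with group means as lines. S. aureus lies highest and A. faecalis lowest for Lce3, Lce1a1 and Lce1d overlap in all groups, and Lce1m is lowest with S. aureus.

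The Lce1 genes encode the LCE proteins of resting epidermis. Lce1a1, with the highest CPM of the subfamily, was at 21.1, 19.5, 20.1 and 19.8 CPM with vehicle, 8.18, 14.0, 19.1 and 24.3 with A. faecalis and 27.6, 24.2, 10.6 and 14.0 with S. aureus. The 4 vehicle libraries lay close together and inside the range of both other groups. Neither bacterium gave a call for it against vehicle (log2 fold change -0.08, SE 0.33 with S. aureus and log2 fold change -0.30, SE 0.33 with A. faecalis, adjusted p = 0.904 and 0.827). Of the 14 Lce1 genes, 12 (all except Lce1l and Lce1m) had log2 fold changes between -0.36 and 0.31 for S. aureus against vehicle. For A. faecalis against vehicle all 14 were negative, from -0.91 to -0.22. Lce1g was the only one of the 14 whose groups did not overlap, against 2.56% of all genes on the lower side. The summed Lce1 level was 119 ± 12.3 CPM with vehicle, 85.8 ± 31.1 with A. faecalis and 105 ± 41.4 with S. aureus, and the 3 ranges overlapped.

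Lce1m stands apart from the rest of its subfamily in place, beyond the Lce3 block, and only 0.926% of its sequence stretches were shared with another gene, which was Gm38119. It was at 5.31, 5.84, 20.7 and 9.58 CPM with vehicle, 2.40, 7.52, 6.54 and 5.55 with A. faecalis and 2.74, 2.35, 1.07 and 1.48 with S. aureus. All 4 S. aureus libraries lay below all 4 vehicle libraries, while vehicle replicate 3 was far above the other vehicle libraries. Lce1m fell with S. aureus (log2 fold change -2.44, SE 0.50, adjusted p = 0.0207; 95% interval -3.53 to -1.35). The log2 fold change was -1.84 (adjusted p = 0.0288) without vehicle replicate 3, and the call was lost without S. aureus replicate 3 (0.0703) or S. aureus replicate 4 (0.0625), and with only the 2 groups in the fit (0.052). With A. faecalis it was at 5.50 ± 2.22 CPM and not called against vehicle (log2 fold change -0.91, SE 0.47, adjusted p = 0.667) or against S. aureus (log2 fold change 1.53, adjusted p = 0.0627). The latter difference was called by the DESeq2 Wald test (0.0102), with only the 2 groups in the fit (0.0255), and without vehicle replicate 3 (0.0184) or A. faecalis replicate 1 (0.0348). Lce1l, at the Lce3 end of the main Lce1 block, had a log2 fold change of -0.95 with S. aureus that was not called (adjusted p = 0.103; DESeq2 Wald test 0.0438).

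The 2 subfamilies were also compared within each library. The ratio of the Lce3 sum to the Lce1 sum was 0.186, 0.237, 0.202 and 0.277 with vehicle, 0.133, 0.0921, 0.112 and 0.152 with A. faecalis and 0.827, 0.586, 1.28 and 0.607 with S. aureus. Every S. aureus library lay above every vehicle library and every vehicle library above every A. faecalis library. Lce3 made up 18.4 ± 2.67% of the LCE total with vehicle, 10.9 ± 2.08% with A. faecalis and 44.1 ± 8.93% with S. aureus. These ratios are descriptions of genes chosen with results of these data known and carry no test.

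**Figure D3:**
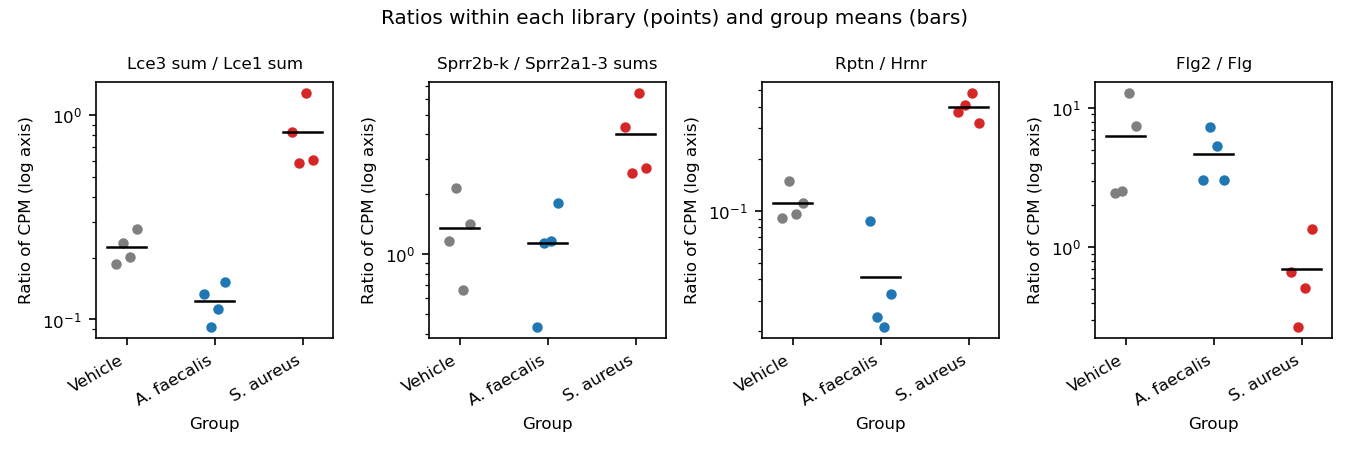
Ratios of CPM within each library (points; y axes, log scale) by group (x axes), with group means as bars, for the Lce3 sum over the Lce1 sum, Sprr2b to Sprr2k over Sprr2a1 to Sprr2a3, Rptn over Hrnr, and Flg2 over Flg. S. aureus libraries lie above all others in the first 3 panels and below all others in the last.

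The small proline-rich proteins are cross-bridges of the envelope, and Sprr2, with 12 of the 16 Sprr genes here, is the largest of their subfamilies. Sprr2a1, Sprr2a2 and Sprr2a3, which share most of their sequence, are given apart from the others. These 3 had log2 fold changes of -0.42 to -0.04 for S. aureus against vehicle, whereas the 9 genes from Sprr2b to Sprr2k had 0.77 to 2.68. Of these 9, edgeR's quasi-likelihood test called Sprr2j-ps alone higher with S. aureus than with vehicle (3.87% of all genes). The DESeq2 Wald test called 6 (Sprr2b, Sprr2d, Sprr2e, Sprr2g, Sprr2i and Sprr2j-ps, against 8.75% of all genes). With limma-voom 2 were called (Sprr2b and Sprr2j-ps, against 7.02% of all genes in either direction). The groups did not overlap for 6 of the 9, against 7.56% of all genes. With A. faecalis 8 were called lower than with S. aureus (7.62% of all genes), all but Sprr2k.

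Sprr2a2 carried nearly all of the estimated counts of these 3. It was at 172, 135, 119 and 182 CPM with vehicle, 67.5, 80.9, 81.7 and 89.5 with A. faecalis and 181, 200.3, 91.2 and 111 with S. aureus. The A. faecalis libraries lay below every library of the other 2 groups, and the vehicle and S. aureus libraries overlapped. Between the bacteria it was lower with A. faecalis (log2 fold change -0.87, SE 0.23, adjusted p = 0.0322), a call lost without any 1 of A. faecalis replicates 1, 2, 3 and 4 and S. aureus replicates 1 and 2 (adjusted p 0.0594 to 0.0884). Against vehicle it was not called with A. faecalis (log2 fold change -0.93, SE 0.23, adjusted p = 0.411; DESeq2 Wald test 0.0310) or S. aureus (log2 fold change -0.06, SE 0.23, adjusted p = 0.899). The sum of Sprr2a1 to Sprr2a3 was 159 ± 31.7 CPM with vehicle, 84.3 ± 9.56 CPM with A. faecalis and 152 ± 54.5 CPM with S. aureus.

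Sprr2b had the widest range of the 46 genes between the bacteria. It was at 4.23, 11.0, 0.158 and 4.28 CPM with vehicle, 0.456, 0.301, 0.333 and 0.854 with A. faecalis and 41.7, 44.5, 22.8 and 16.7 with S. aureus. Vehicle replicate 3 was below every A. faecalis library, and the other 3 vehicle libraries were above all of them and below all of S. aureus. Sprr2b was 67.0-fold lower with A. faecalis than with S. aureus (log2 fold change -6.07, SE 0.93, adjusted p = 0.00258; 95% interval -8.10 to -4.04). Against vehicle, S. aureus gave log2 fold change 2.68, SE 0.76, just outside the threshold (adjusted p = 0.0549), and it was called without vehicle replicate 3 (0.0218) or vehicle replicate 2 (0.034), by the DESeq2 Wald test (0.0152) and by limma-voom (0.0297). A. faecalis against vehicle gave log2 fold change -3.38, SE 0.87 (adjusted p = 0.411; DESeq2 Wald test 0.0248).

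Sprr2d, the most abundant gene from Sprr2b to Sprr2k, was at 81.9, 111, 24.4 and 102 CPM with vehicle, 12.8, 30.5, 33.4 and 55.6 with A. faecalis and 274, 226, 183 and 118 with S. aureus. Every S. aureus library exceeded every vehicle library, and vehicle replicate 3 fell among the A. faecalis libraries. The difference between the bacteria was called (log2 fold change -2.60, SE 0.50, adjusted p = 0.00747). Sprr2e was at 34.1, 46.2, 12.1 and 40.1 CPM with vehicle, 3.70, 13.2, 12.4 and 24.4 with A. faecalis and 127, 70.6, 103 and 46.7 with S. aureus. It showed the same order, and A. faecalis was lower than S. aureus (log2 fold change -2.70, SE 0.55, adjusted p = 0.0093). Sprr2i was at 26.0, 45.7, 7.89 and 37.0 CPM with vehicle, 3.43, 10.3, 8.46 and 19.5 with A. faecalis and 124, 76.4, 79.8 and 46.9 with S. aureus. Here too S. aureus stood above both other groups and the bacteria differed (log2 fold change -2.98, SE 0.58, adjusted p = 0.00779). Against vehicle, S. aureus gave 1.33, 1.39 and 1.49 on the log2 scale for Sprr2d, Sprr2e and Sprr2i, none of them called by edgeR's test (adjusted p = 0.106, 0.116 and 0.111) and all 3 called by the DESeq2 Wald test (0.0275, 0.0335 and 0.0288).

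Sprr2f was at 15.9, 28.7, 7.27 and 29.7 CPM with vehicle, 1.76, 13.1, 10.8 and 19.7 with A. faecalis and 82.0, 27.6, 83.8 and 27.3 with S. aureus. Its S. aureus libraries formed a high and a low pair, and replicates 2 and 4 lay within the vehicle range. Sprr2g was at 12.7, 18.0, 5.74 and 16.7 CPM with vehicle, 2.52, 8.86, 10.0 and 14.2 with A. faecalis and 56.9, 26.4, 43.8 and 19.4 with S. aureus, with S. aureus above all other libraries. Sprr2h was at 21.3, 29.1, 12.4 and 31.2 CPM with vehicle, 4.58, 13.8, 17.7 and 22.2 with A. faecalis and 74.0, 40.8, 64.0 and 23.5 with S. aureus, and S. aureus replicate 4 lay within the vehicle range. All 3 were lower with A. faecalis than with S. aureus, by log2 fold change -2.28, SE 0.67, adjusted p = 0.045 for Sprr2f, log2 fold change -2.04, SE 0.51, adjusted p = 0.0232 for Sprr2g and log2 fold change -1.79, SE 0.48, adjusted p = 0.0300 for Sprr2h. These 3 calls were each lost without some libraries. That of Sprr2f was lost without any 1 of vehicle replicates 1 and 2, A. faecalis replicates 1, 2, 3 and 4 and S. aureus replicates 1, 2 and 3 (up to 0.114), that of Sprr2g without A. faecalis replicates 2 and 3 and S. aureus replicates 1 and 3 (up to 0.0603) and that of Sprr2h without the same 4 libraries (up to 0.0754).

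Sprr2j-ps was at 3.78, 6.26, 3.82 and 4.84 CPM with vehicle, 0.98, 2.54, 3.82 and 4.93 with A. faecalis and 18.3, 10.1, 16.8 and 8.30 with S. aureus. All S. aureus libraries lay above all vehicle libraries, and the A. faecalis and vehicle ranges overlapped. It was called higher with S. aureus than with vehicle (log2 fold change 1.52, SE 0.41, adjusted p = 0.0491), a call that remained only without A. faecalis replicate 1 or A. faecalis replicate 4 and was lost without any 1 of the other 10 libraries (adjusted p 0.0514 to 0.129). Its difference between the bacteria (log2 fold change -2.13, SE 0.42, adjusted p = 0.00823) held without each library in turn. Sprr2k, the last of these genes, ranged over 7.62 to 8.74 CPM with vehicle, 0.676 to 8.82 CPM with A. faecalis and 7.33 to 20.0 CPM with S. aureus, and was not called in any comparison by edgeR's test. The DESeq2 Wald test called it lower with A. faecalis than with S. aureus (0.0153, against 0.0764 by edgeR's test). The sum from Sprr2b to Sprr2k was 217 ± 98.9 CPM with vehicle, 99.8 ± 56.9 CPM with A. faecalis and 570.1 ± 208 CPM with S. aureus. As a ratio to the sum of Sprr2a1 to Sprr2a3 in the same library it was 1.16, 2.15, 0.659 and 1.42 with vehicle, 0.433, 1.14, 1.17 and 1.80 with A. faecalis and 4.34, 2.56, 6.43 and 2.72 with S. aureus. The S. aureus libraries were above all others, and those of vehicle and A. faecalis overlapped.

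**Figure D4:**
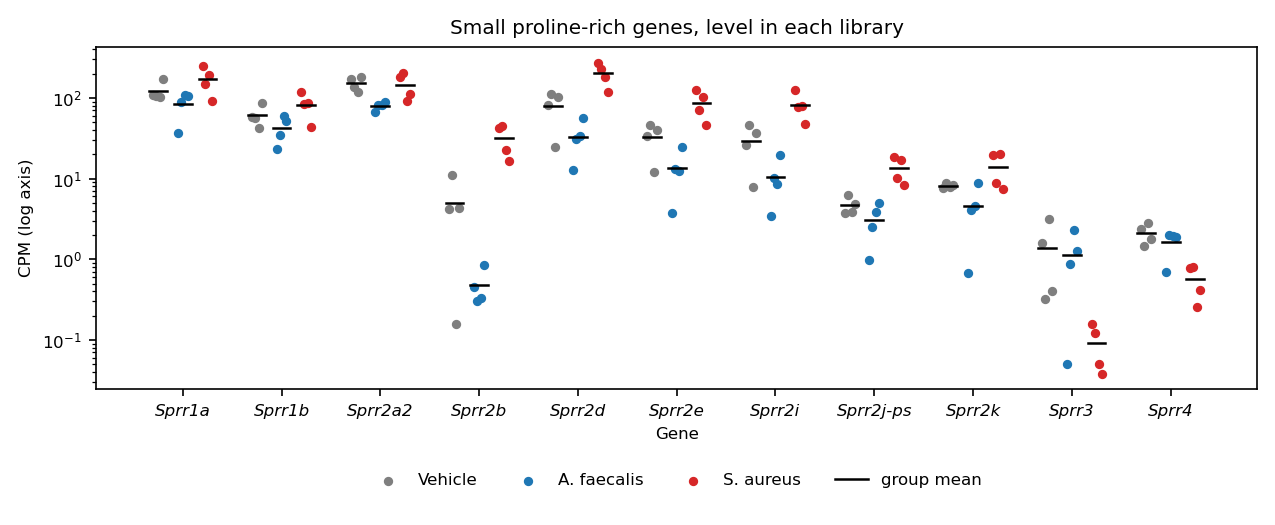
Level in each library (points; y axis, CPM on a log axis) of 11 small proline-rich genes (x axis), with group means as lines. S. aureus lies above A. faecalis from Sprr2b to Sprr2j-ps, Sprr2a2 is lowest with A. faecalis, and Sprr3 and Sprr4 are lowest with S. aureus.

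Promoter sequences, the stretch before each gene's start, are shown for 3 pairs of related genes. Sprr2b and Sprr2d were both called higher with S. aureus than with A. faecalis. Of the LCE genes Lce3a rose and Lce1m fell with S. aureus against vehicle, and of the S100-fused genes Rptn was higher and Flg2 lower with S. aureus than with A. faecalis. They come from RefSeq on build GRCm38.p6, in which 42 of the 46 genes were matched; Crct1, Lce1f, Sprr2g and Sprr2j-ps were not. Each is the 250 bases before the start, 5′ to 3′ on the gene's strand, and capitals mark TGANTCA, the binding motif of AP-1 factors, and TATAAA, the TATA box. Sprr2b lies at chr3:92316455-92316704 on the plus strand, Sprr2d at chr3:92338890-92339139 on the plus strand, Lce3a at chr3:92926231-92926480 on the minus strand, Lce1m at chr3:93019062-93019311 on the minus strand, Flg2 at chr3:93197023-93197272 on the plus strand and Rptn at chr3:93393449-93393698 on the plus strand.
Sprr2b: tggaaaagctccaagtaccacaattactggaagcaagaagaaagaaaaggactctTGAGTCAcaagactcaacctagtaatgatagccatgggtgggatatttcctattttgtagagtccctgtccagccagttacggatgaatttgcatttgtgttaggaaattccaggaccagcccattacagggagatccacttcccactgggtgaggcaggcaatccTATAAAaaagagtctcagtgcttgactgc
Sprr2d: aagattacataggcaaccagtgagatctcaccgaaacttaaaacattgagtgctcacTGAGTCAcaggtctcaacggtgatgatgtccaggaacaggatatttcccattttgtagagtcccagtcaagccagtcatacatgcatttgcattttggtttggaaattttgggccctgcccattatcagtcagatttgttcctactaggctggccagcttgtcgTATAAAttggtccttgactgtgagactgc
Lce3a: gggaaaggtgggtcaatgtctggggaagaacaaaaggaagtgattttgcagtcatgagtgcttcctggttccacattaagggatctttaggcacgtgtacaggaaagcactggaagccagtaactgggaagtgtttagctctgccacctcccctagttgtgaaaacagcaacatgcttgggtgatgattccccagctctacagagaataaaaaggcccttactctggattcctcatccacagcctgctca
Lce1m: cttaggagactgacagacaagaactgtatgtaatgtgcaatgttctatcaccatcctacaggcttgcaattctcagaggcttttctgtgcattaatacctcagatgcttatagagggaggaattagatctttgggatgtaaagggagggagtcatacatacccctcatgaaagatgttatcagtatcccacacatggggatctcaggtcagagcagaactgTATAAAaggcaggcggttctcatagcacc
Flg2: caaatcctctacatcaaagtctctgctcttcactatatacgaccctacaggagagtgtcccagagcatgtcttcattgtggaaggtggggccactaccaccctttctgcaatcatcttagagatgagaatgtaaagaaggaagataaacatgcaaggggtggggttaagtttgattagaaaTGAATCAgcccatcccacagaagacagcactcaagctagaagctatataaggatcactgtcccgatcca
Rptn: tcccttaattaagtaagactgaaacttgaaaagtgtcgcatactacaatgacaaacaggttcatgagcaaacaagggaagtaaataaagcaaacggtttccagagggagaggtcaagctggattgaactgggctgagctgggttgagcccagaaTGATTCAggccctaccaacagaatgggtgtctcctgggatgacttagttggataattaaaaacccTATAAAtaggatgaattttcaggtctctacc
In windows of 300 bases, from 250 before to 50 after the start, the AP-1 motif on either strand was found in 16 of the 42 promoters (38.1%) and in 7.81% of the 32851 promoters of the table. It stood in all 7 matched promoters from Sprr2b to Sprr2k, starting between -198 and -193, and Sprr2k held a further match. Promoters of such paralogs are not independent of each other, so the 38.1% carries no test. The TATA box on the gene's strand began at -29 in the same 7 promoters, and 8.32% of all promoters held it. Neither motif was found in the windows of Sprr2a1, Sprr2a2 and Sprr2a3. Of the 13 matched Lce1 and 6 Lce3 promoters, 0 held the AP-1 motif. The TATA box was found in Lce1d and Lce1m and in 0 of 6 Lce3 promoters. Among the S100-fused genes 5 of 7 held the AP-1 motif, Flg2 at -69 and Rptn at -96. Also searched on both strands were TTCNNNGAA for STAT factors (3 of 42 promoters, against 8.3% of all), AACNGGTT for grainyhead factors (1 of 42, 2.09%), CCACCC, the CACCC box (10 of 42, 31.5%), CCGGAAG for Ets factors (0 of 42, 8.86%), the kappaB site (0 of 42, 1.63%) and the interferon-stimulated response element (0 of 42, 3.44%). A match of letters is a description of the sequence and no evidence of binding, and its absence from a window says nothing of the factor.

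The Sprr1 genes encode the small proline-rich proteins of keratinocytes that respond to stress and injury as well as to differentiation. Sprr1a was at 107, 106, 103 and 172 CPM with vehicle, 37.0, 88.1, 108 and 105 with A. faecalis and 251, 147, 191 and 91.9 with S. aureus. Groups overlapped, with vehicle replicate 4 well above the other 3 vehicle libraries and A. faecalis replicate 1 below all others. It was not called with S. aureus (log2 fold change 0.48, SE 0.35, adjusted p = 0.413), with A. faecalis (log2 fold change -0.53, SE 0.35, adjusted p = 0.724) or between them (log2 fold change -1.01, SE 0.35, adjusted p = 0.0838; called by the DESeq2 Wald test, 0.0247, and without S. aureus replicate 4, 0.0499). Sprr1b, next but one to it, ranged over 42.1 to 85.2 CPM with vehicle, 23.5 to 59.1 CPM with A. faecalis and 43.8 to 117 CPM with S. aureus and was not called either, except between the bacteria by the DESeq2 Wald test (0.0250).

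Sprr3, which lies between the 2 Sprr1 genes, and Sprr4, which lies next to Ivl, both had their lowest mean with S. aureus. Sprr3, a protein of the oral and oesophageal lining in the main, was at 1.60, 0.326, 3.16 and 0.401 CPM with vehicle, 0.0507, 0.876, 2.31 and 1.26 with A. faecalis and 0.157, 0.121, 0.0508 and 0.038 with S. aureus. All S. aureus libraries lay below all vehicle libraries, and A. faecalis replicate 1 was as low as they were. Sprr3 was higher with A. faecalis than with S. aureus (log2 fold change 3.60, SE 1.07, adjusted p = 0.0481), a call lost with limma-voom (0.243), with no filter on low counts (0.0532) and without any 1 of vehicle replicate 1, A. faecalis replicates 2, 3 and 4 and S. aureus replicates 1, 2, 3 and 4 (up to 0.128). Its log2 fold change of -3.89 for S. aureus against vehicle was not called (SE 1.07, adjusted p = 0.051; DESeq2 Wald test 0.000819). For A. faecalis against vehicle it was -0.29 (adjusted p = 0.947), and it turned to 0.54 without vehicle replicate 3. Sprr4 was at 2.39, 1.48, 2.79 and 1.80 CPM with vehicle, 0.693, 2.00, 1.92 and 1.87 with A. faecalis and 0.784, 0.812, 0.254 and 0.418 with S. aureus. The S. aureus and vehicle libraries did not overlap, and A. faecalis replicate 1 fell within the S. aureus range. Sprr4 fell with S. aureus against vehicle (log2 fold change -1.89, SE 0.41, adjusted p = 0.0241), a call lost without vehicle replicate 1 and S. aureus replicates 3 and 4 (0.0501 to 0.0708). With A. faecalis it was higher than with S. aureus (log2 fold change 1.50, SE 0.41, adjusted p = 0.0331), which was lost with limma-voom (0.0548) and without any 1 of A. faecalis replicates 2, 3 and 4 and S. aureus replicates 3 and 4 (up to 0.0899).

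Among the S100-fused genes, filaggrin 2 and repetin were called in opposite directions between the bacteria. Flg2, a filaggrin relative of the cornified layer, was at 87.7, 64.0, 235 and 87.9 CPM with vehicle, 45.1, 76.0, 93.4 and 84.8 with A. faecalis and 22.1, 16.6, 5.44 and 15.5 with S. aureus. Vehicle replicate 3 was far above the rest, and all S. aureus libraries lay below all libraries of the other 2 groups. Flg2 was 7.95-fold lower with S. aureus than with vehicle, at 14.9 ± 6.95 against 119 ± 78.4 CPM (log2 fold change -2.99, SE 0.49, adjusted p = 0.0100), and the log2 fold change was -2.41 (adjusted p = 0.0107) without vehicle replicate 3. It was higher with A. faecalis than with S. aureus (log2 fold change 2.33, SE 0.47, adjusted p = 0.0093) and did not pass the test between A. faecalis and vehicle (log2 fold change -0.66, SE 0.45, adjusted p = 0.725). Both calls held under every setting tried.

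Rptn, repetin, an envelope precursor of the same type, was at 20.1, 25.1, 10.0 and 10.3 CPM with vehicle, 6.66, 1.69, 2.55 and 5.57 with A. faecalis and 62.3, 114, 23.8 and 29.9 with S. aureus. S. aureus and A. faecalis were far apart, vehicle lay above A. faecalis, and S. aureus replicate 3 lay below vehicle replicate 2. Rptn was 14.0-fold lower with A. faecalis than with S. aureus (log2 fold change -3.81, SE 0.61, adjusted p = 0.00313), a call that held without each library in turn. Against vehicle it was not called by edgeR's test with S. aureus (log2 fold change 1.81, SE 0.55, adjusted p = 0.068) or with A. faecalis (log2 fold change -2.00, SE 0.57, adjusted p = 0.487), and was by the DESeq2 Wald test (0.00627 and 0.0314). Tchh, trichohyalin, a protein of the hair follicle's inner root sheath, was at 2.76, 1.82, 1.53 and 4.68 CPM with vehicle, 1.05, 1.31, 1.95 and 1.45 with A. faecalis and 3.27, 3.16, 8.03 and 2.75 with S. aureus. S. aureus replicate 3 was above all others, and every A. faecalis library but replicate 3 was below every library of the other 2 groups. Tchh was lower with A. faecalis than with S. aureus (log2 fold change -1.58, SE 0.42, adjusted p = 0.0315), a call lost without any 1 of A. faecalis replicates 1, 2 and 4 and S. aureus replicate 3 (up to 0.092). Keratins that define the inner root sheath (Krt25, Krt27, Krt28, Krt71, Krt72 and Krt73) summed to under 1 CPM in every library, Krt25 being at 0 in 9 of 12.

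Flg, filaggrin itself, which is cut into the natural moisturising factors of the skin, was at 36.0, 25.2, 18.4 and 11.8 CPM with vehicle, 14.9, 10.4, 17.6 and 27.7 with A. faecalis and 33.2, 61.7, 10.7 and 11.5 with S. aureus. All 3 groups overlapped, and S. aureus split into a high pair, replicates 1 and 2, and a low pair. Hrnr, hornerin, the most abundant gene of the type on raw CPM, was at 220.2, 169, 105 and 92.6 CPM with vehicle, 76.7, 69.9, 120.0 and 169.9 with A. faecalis and 166, 279.5, 49.6 and 92.4 with S. aureus. It had the same split and the same overlap. Neither was called in any comparison by any of the 3 tools, and their log2 fold changes for S. aureus against vehicle were 0.36 (SE 0.54) and 0.00 (SE 0.48). Without S. aureus replicate 2 these became -0.31 and -0.51. The ratio of Flg2 to Flg within a library was 2.44, 2.54, 12.8 and 7.42 with vehicle, 3.03, 7.30, 5.30 and 3.07 with A. faecalis and 0.666, 0.269, 0.507 and 1.35 with S. aureus, with every S. aureus library below every other. That of Rptn to Hrnr was 0.0912, 0.148, 0.0957 and 0.111 with vehicle, 0.0868, 0.0242, 0.0213 and 0.0328 with A. faecalis and 0.375, 0.407, 0.479 and 0.324 with S. aureus. All 3 groups were separate, A. faecalis lowest and S. aureus highest. Tchhl1 stayed at 0.0676 to 0.237 CPM, and Crnn, cornulin, reached at most 0.11 CPM, in vehicle replicate 3.

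**Figure D5:**
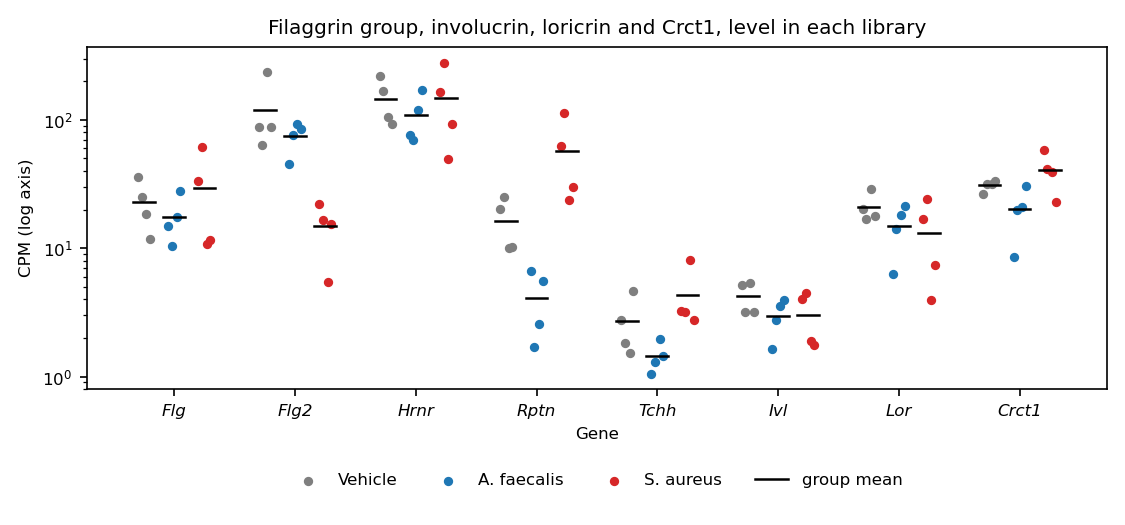
Level in each library (points; y axis, CPM on a log axis) of the 5 tested S100-fused genes and of Ivl, Lor and Crct1 (x axis), with group means as lines. Flg2 is lowest with S. aureus, Rptn is highest with S. aureus and lowest with A. faecalis, and Flg, Hrnr, Ivl, Lor and Crct1 overlap among groups.

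Ivl, involucrin, the early scaffold of the envelope, was at 5.15, 3.18, 5.32 and 3.19 CPM with vehicle, 1.64, 2.74, 3.53 and 3.96 with A. faecalis and 4.02, 4.46, 1.91 and 1.75 with S. aureus. Lor, loricrin, its most abundant protein in mature epidermis, was at 20.3, 16.8, 29.2 and 17.8 CPM with vehicle, 6.30, 14.2, 18.1 and 21.2 with A. faecalis and 16.8, 24.2, 3.96 and 7.35 with S. aureus. Crct1, a cysteine-rich neighbour of the Lce genes, was at 26.5, 31.4, 31.8 and 33.6 CPM with vehicle, 8.59, 20.0, 21.1 and 30.6 with A. faecalis and 58.4, 41.3, 39.4 and 23.0 with S. aureus. Each of the 3 had overlapping groups in every comparison, and edgeR's test called none of them. Crct1 was called lower with A. faecalis than with S. aureus by the DESeq2 Wald test (0.0161) and without A. faecalis replicate 4 (0.0426) or S. aureus replicate 4 (0.0398). Between A. faecalis and S. aureus the adjusted p was 0.0674 for Crct1 (log2 fold change -1.02), 0.837 for Lor (0.19) and 0.962 for Ivl (-0.04). The 95% interval of the S. aureus difference from vehicle was -1.25 to 0.31 for Ivl, -1.76 to 0.40 for Lor and -0.33 to 1.12 for Crct1 on the log2 scale. For Lor that range includes a fall of more than 1 unit.

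These genes varied more between mice of 1 group than most genes did. The median coefficient of variation over the 44 genes was 24.8% with vehicle, 40.9% with A. faecalis and 42.9% with S. aureus, against 18.6%, 13.7% and 12.8% over all genes tested. Whole libraries often stood high or low together. A. faecalis replicate 1 was the lowest of its group for 34 of the 44 genes (33.9% of all genes tested). Replicate 4 was the highest for 35 (24.8% of all genes). S. aureus replicate 1 was the highest for 29 (29.2%), and replicates 3 and 4 were the lowest for 21 and 23 (25.3% and 22.5%). Vehicle replicate 3 was the lowest of its group for 21 genes (35.1% of all genes), among them all of Sprr2b to Sprr2i. It was the highest for 11, among them Flg2, Lce1m and Sprr3, against 35.4% of all genes. The summed basal keratinocyte markers were lowest in A. faecalis replicate 1 within its group (713 CPM) and lowest in S. aureus replicate 4 within its group (929.7 CPM). Within the vehicle group they were lowest in replicate 2 (1196 CPM) and highest in replicate 3 (1889 CPM). The highest basal sums of the other groups were in A. faecalis replicate 3 (1159 CPM) and S. aureus replicate 2 (2375 CPM).

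Other envelope and cornified layer genes were read from a list of 12, of which 11 were tested. With S. aureus against vehicle 1 of 11 was called (6.84% of all genes), Hopx, a homeodomain protein of differentiating keratinocytes, which rose (log2 fold change 1.05, SE 0.23, adjusted p = 0.0241; not called without S. aureus replicate 2, 3 or 4, adjusted p up to 0.0716). Csta1 was called as well by the DESeq2 Wald test (0.0307). Between the bacteria 5 of 11 were called, all lower with A. faecalis (7.62% of all genes): Csta1, a cystatin of the envelope (log2 fold change -2.09, adjusted p = 0.00252), Hopx (-1.17, 0.00763), Cdsn, corneodesmosin, which holds cornified cells together (-1.31, 0.017), Cnfn and Evpl. Of 12 enzymes that cross-link the envelope or process filaggrin, Tgm1, the main keratinocyte transglutaminase, was the only one called with S. aureus against vehicle, by each of the 3 tools. It was at 35.0, 63.4, 25.9 and 83.6 CPM with vehicle, 22.9, 33.5, 32.4 and 34.2 with A. faecalis and 126, 159, 177 and 140.4 with S. aureus, with S. aureus above both other groups, and rose (log2 fold change 1.53, SE 0.31; adjusted p = 0.0193, and 0.0605 without S. aureus replicate 3). Between the bacteria 5 of 12 were called, all lower with A. faecalis (7.62% of all genes): Tgm1 (-2.29, 0.00171), Tgm5 (-1.36, 0.0126), Tgm3 (-1.41, 0.0143), Klk7 and Padi1. The DESeq2 Wald test called 8 of the 12 (19.1% of all genes) and limma-voom 5 (12.1%). Against vehicle with A. faecalis 0 of the 11 and 0 of the 12 were called by edgeR's quasi-likelihood test or limma-voom. The DESeq2 Wald test called 1 lower and 0, against 0.44% of all genes called lower. An unadjusted p under 0.05 was reached by 2 and 4, against 7.68% of all genes, and all 23 log2 fold changes were negative.

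Of 18 transcription factors of epidermal differentiation, Prdm1, a repressor needed for the last steps of cornification, was the only one called by edgeR's test with S. aureus against vehicle (6.84% of all genes), where it rose (log2 fold change 1.02, SE 0.18, adjusted p = 0.0127). The DESeq2 Wald test called 6 of the 18 (16.1% of all genes), adding Fosl1, Junb and Ehf on the higher side and Cebpa and Gata3 on the lower. With limma-voom 3 were called (Prdm1, Fosl1 and Junb; 7.02% of all genes). Between the bacteria the DESeq2 Wald test called 10 of 18 (19.1% of all genes) and limma-voom 8 (12.1%). By edgeR's test 9 of 18 were called, all lower with A. faecalis (7.62% of all genes), among them Prdm1 (-1.18, 0.00277), Grhl3, a grainyhead factor of barrier formation (-1.48, 0.00886), Ehf, an epithelial Ets factor (-1.62, 0.00924), Elf3, Junb, Hes1, Ovol1 and Fosl1. Junb and Fosl1 are subunits of AP-1. Klf4 was not called in any comparison by any of the 3 tools. With A. faecalis against vehicle 0 of 18 were called by edgeR's quasi-likelihood test, the DESeq2 Wald test or limma-voom, and 8 had an unadjusted p under 0.05 (7.68% of all genes). Of 6 suprabasal keratins, Krt77 was at 51.2, 34.6, 141 and 47.2 CPM with vehicle, 18.0, 47.0, 41.7 and 42.9 with A. faecalis and 8.15, 2.68, 1.04 and 4.50 with S. aureus. It fell with S. aureus against vehicle (log2 fold change -4.07, SE 0.63, adjusted p = 0.00875, with a log2 fold change of -3.43 without vehicle replicate 3) and was higher with A. faecalis than with S. aureus (log2 fold change 3.20, SE 0.61, adjusted p = 0.00695). Vehicle replicate 3 was the highest for Krt77 as for Flg2 and Lce1m. Krt80 was the other keratin called, lower with A. faecalis than with S. aureus (-0.77, 0.0485), and Krt1, Krt10, Krt2 and Krt78 were not called in any comparison by edgeR's test. By the DESeq2 Wald test Krt78 was called lower with S. aureus than with vehicle (0.0485), and Krt2 higher with A. faecalis than with S. aureus (0.0255). Of the 21 calls between the bacteria in these 4 lists, 11 held without each library in turn. The other 10, among them Cnfn, Evpl, Klk7, Padi1, Junb, Hes1, Ovol1, Fosl1 and Krt80, were lost without any of 2 to 9 libraries (adjusted p up to 0.125).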

How the data were processed

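RNA was sequenced from 12 mouse wounds, 4 per group. Per the labels' protocols, stranded libraries were made from 100 ng of total RNA after removal of ribosomal RNA. The authors deposited 1 table of estimated counts per gene for the 12 libraries. The submitters' processing notes name the quantifier kallisto 0.48.0, the build GRCm39, DESeq2 1.34.0, R 4.1.3 and FastQC 0.12.1, without their roles. The step from transcripts to genes and the use of strand are not given in the sources used here, and only 0.512% of nonzero values are whole (within 0.001). Such estimates divide reads shared by paralogs or by overlapping genes.

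Estimated counts were rounded to whole numbers. The 1 row without a gene name, with 0.00909% to 0.0151% of counts, was left out. Library sizes were scaled by TMM in edgeR 4.0.16 (R 4.3.3), and filterByExpr at a minimum count of 10 and a minimum total of 15 kept 18218 genes. One model with a mean per group was fitted to all 12 libraries. The two-sided quasi-likelihood test (robust) was used, p-values were adjusted by Benjamini-Hochberg over all 18218 genes, and genes were called under 0.05. Intervals are 95%. P-values set a difference between group means against the spread between mice within groups, estimated in 1 fit over all 3 groups. Libraries of 1 group differed by 28.0 or more in chi-square per degree of freedom, so none looked like a copy of another. The genes in every list were chosen with earlier results of these data known. Values are given per library for genes called in a comparison, for the most abundant gene of each subfamily and for the tested genes chosen by whole symbol. From the lists of other genes, up to 3 called genes per comparison are given with values. The values of 1 gene of these lists are not reported here. The script was tested on simulated counts. Alternatives used DESeq2 1.42.0 and limma-voom (limma 3.58.1), other scalings and filters, only the 2 groups compared, a block for the replicate number, a threshold of 0.1, and the removal of 1 library at a time. Promoters and gene order come from RefSeq tables of another build than the counts and were matched by symbol. Shared stretches were counted in the reference transcripts.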

Additional observations from a re-analysis of the deposited data

Results flagged for a closer look

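In 102 groups of 4 libraries (the genes given per library and the subfamily sums, in each group), 4 held 1 library far from the other 3 by Dixon's criterion at the 95% level. Chance alone marks about 1 in 20 such groups. Flg2 was at 235 CPM in vehicle replicate 3 and at 64.0 to 87.9 CPM in the other 3. Sprr1a was at 172 CPM in vehicle replicate 4 and at 103 to 107 CPM in the others. Sprr4 was at 0.693 CPM in A. faecalis replicate 1 and at 1.87 to 2.00 CPM in the others. Tchh was at 8.03 CPM in S. aureus replicate 3 and at 2.75 to 3.27 CPM in the others.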

How the results depend on the processing

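Under the alternatives, 1546 values of single genes kept their direction and their side of the threshold, 37 passed it only there, 68 no longer passed it and 25 changed sign. The number called with S. aureus against vehicle (8) was 18 by the DESeq2 Wald test, 13 higher and 5 lower, and 14 at a threshold of 0.1, 10 of them higher. Leaving out 1 library gave 5 to 12, with 4 to 8 higher and 1 to 4 lower. With A. faecalis against vehicle (0) the DESeq2 Wald test called 6, all 6 lower, and no library left out gave a call. Between the bacteria (20), leaving out 1 library gave 13 to 21, with 1 to 4 higher, and limma-voom called 1 higher. Replicate numbers did not pair the libraries: the correlation of same-numbered libraries was over 0.1 in 3 of 12 pairs (-0.21 to 0.18). With the replicate number as a block the 3 numbers called were 6, 0 and 14, of the last only 1 higher. The calls lost with the block were those of Sprr2j-ps and Sprr4 for S. aureus against vehicle. Between the bacteria they were those of Sprr2a2, Sprr2f, Sprr2g, Sprr2h, Sprr3 and Sprr4. The sign turned for uncalled genes alone. For S. aureus against vehicle Hrnr was at -0.023 with upper-quartile scaling, -0.20 with limma-voom and -0.10 with the block. Leaving out 1 library gave -0.51 to 0.29 for it, -0.31 to 0.68 for Flg, -0.29 to 0.12 for Lce1a1 and -0.25 to 0.11 for Sprr2a2. Sprr3 ran from -0.92 to 0.54 with A. faecalis against vehicle. Between the bacteria Hrnr ran from -0.73 to 0.0874, Ivl from -0.22 to 0.22 (0.0074 with the block) and Lor from -0.11 to 0.68. The cause was not tested. Subfamily sums moved by less than the spread between libraries under both other scalings. The same held without each library, but leaving out 1 of 4 libraries cannot move a group mean by a full SD. The scalings shifted the median of all genes by under 0.1. Crnn and Tchhl1, with 15.9 and 83.2 estimated counts in all, were too low for any comparison, and for all genes 4 mice per group limit the precision.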
